A study of Homo sapiens with 6 samples.

Results

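The 7 protein coding genes described here, KCTD2, VAC14, LUC7L2, ERCC1, CROCC, HJV and AIM2, were chosen by their peaks over nuclear tRNA genes in lists of RNA sites crosslinked to GAPDH, the glycolytic enzyme glyceraldehyde-3-phosphate dehydrogenase. All peaks to which the deposited lists give 1 of these symbols were taken. They numbered 29 among 1316 peaks, and the 7 genes were 7 of 947 genes with a peak in any list. A peak is a stretch of the genome that the authors listed in 1 condition, and peaks of different lists that overlapped were joined into 1 site, which gave 14 sites. Of the 29 peaks, 27 lay over a tRNA gene, at 13 sites with 13 different tRNA genes. That tRNA genes lay under these peaks was what selected the genes, so it is no finding. Which tRNA genes these were, where they lay in the host genes, how the peaks fitted them and which conditions held them is described below.

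The series measured GAPDH-bound RNA by CLIP-seq (crosslinking, immunoprecipitation and sequencing) in MOLM-13, an established human acute myeloid leukaemia cell line, unmodified as far as the labels say. It held 6 samples, 2 for each medium (galactose, low glucose and normal glucose), and asked whether the RNA that GAPDH contacts changes with the sugar that feeds glycolysis. The authors had joined both samples of a condition into 1 list, so each condition gave 1 value, and neither a spread between samples nor a test over samples could be had. The lists give positions and gene names without counts, scores or strands, so the depth behind a peak is unknown, a place without a listed peak is not shown to lack the RNA, and RNA of the tRNA gene and RNA of the host transcript cannot be told apart. Of 337 peaks with galactose 65 lay over tRNA genes, as did 68 of 484 with low glucose and 57 of 495 with normal glucose. The lists hold no expression level against which the label of the cell line could be checked.

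A tRNA carries an amino acid to the ribosome and reads the codon of the mRNA with its anticodon. Its gene is short and is transcribed by RNA polymerase III from promoter elements inside the gene, the A box near the start and the B box near the end, and transcription stops at a run of T just after it. The primary transcript thus has short extra stretches at both ends, a leader removed by RNase P and a trailer removed by RNase Z. Many tRNA genes lie inside introns of genes that RNA polymerase II transcribes. All 13 tRNA genes described here are annotated inside such a host gene.

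The 13 tRNA genes read 9 different anticodons and belonged to 5 kinds. There were 5 for arginine, 4 for glycine, 2 for glutamate, 1 for asparagine and 1 for selenocysteine, the amino acid that is inserted at a recoded stop codon. Of all tRNA genes with a peak in any list (87 of 429 genes used), 11 were for arginine, 13 for glycine, 5 for glutamate, 6 for asparagine and 2 for selenocysteine. The genes are shown in 5′ to 3′ direction from hg38 at the positions of the RefSeq table of GRCh38.p14, with the anticodon in capitals. The first 3 are arginine tRNA genes found under peaks in every list, which differ from each other at no more than 3 bases.
TRR-CCT1-1: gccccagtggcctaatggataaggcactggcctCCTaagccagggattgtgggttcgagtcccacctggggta
TRR-CCT2-1: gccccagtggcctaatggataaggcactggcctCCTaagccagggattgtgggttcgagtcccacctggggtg
TRR-CCT4-1: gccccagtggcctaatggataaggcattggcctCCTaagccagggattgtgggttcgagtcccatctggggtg

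TRR-CCT1-1 and TRR-CCT2-1, both in KCTD2, had 72 of 73 bases in common, with A73G as their only difference (positions counted from 1 at the first base of the tRNA gene). TRR-CCT4-1, in LUC7L2, differed from TRR-CCT2-1 by C27T and C65T. The other arginine tRNA of KCTD2, TRR-TCG3-1, had 49 of 73 bases (67.1%) in common with TRR-CCT1-1. Peaks of the first 3 genes were in every list, and the peak of TRR-TCG3-1 was not.

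Glycine tRNA genes are shown because close relatives lay in different host genes and in different lists.
TRG-CCC1-2: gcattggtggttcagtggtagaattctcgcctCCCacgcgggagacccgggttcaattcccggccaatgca
TRG-GCC2-4: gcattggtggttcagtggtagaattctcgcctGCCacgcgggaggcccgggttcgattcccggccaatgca
TRG-GCC3-1: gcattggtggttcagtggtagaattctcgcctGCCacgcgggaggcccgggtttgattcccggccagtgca

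Among the glycine tRNA genes, TRG-GCC2-4 and TRG-GCC2-5, both in VAC14, were identical, and TRG-GCC3-1, also in VAC14, differed from them by C54T and A67G. TRG-CCC1-2 (CROCC) differed from TRG-GCC2-4 by C33G read from CCC1-2, together with A45G and A55G. The glycine tRNA gene of CROCC had peaks in galactose and low glucose, whereas the 3 of VAC14 had peaks in normal glucose, so that no glycine tRNA gene of these hosts was in all 3 lists. This did not hold for the same sequence elsewhere. TRG-GCC2-1 and TRG-GCC2-6, identical to TRG-GCC2-4 and TRG-GCC2-5 but outside these hosts, had peaks in all 3 lists.

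KCTD2, a subunit that brings substrates to a cullin ubiquitin ligase, held 8 of the 29 peaks, more than any of the other 6 genes. Its 3 tRNA genes, all for arginine, lay within 1280 nt of each other near the 5′ end of the annotated gene. The peak over TRR-CCT1-1 (chr17:75033906-75033978, plus strand) ran from 75033853 to 75034030 in galactose, low glucose and normal glucose. The peak over TRR-CCT2-1 (chr17:75034431-75034503, minus strand) ran from 75034377 to 75034556 in the 3 lists. Both sites thus had the same first and last base in every condition. The third gene, TRR-TCG3-1 (chr17:75035113-75035185, plus strand), had no peak in galactose, a peak of 105 nt from 75035135 to 75035239 in low glucose and a peak of 179 nt from 75035060 to 75035238 in normal glucose. The low glucose peak covered 69.9% of the tRNA gene, up to its 3′ end, and the normal glucose peak covered all of it.

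Per the study's methods, isolated crosslink sites were extended by up to 50 nt, so the 50 outer nt of each peak were set aside here and the rest was called its core. The methods state this extension for isolated sites only. For wider, merged peaks, which include all those with a whole-gene core, the trimming was applied likewise without being stated, and the distances of their core ends depend on it. In the KCTD2 peak over TRR-CCT1-1 the core began 3 nt before the first base of the tRNA gene and ended 2 nt after the last.

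LUC7L2, a splicing protein of the U1 snRNP whose loss is known from myeloid malignancies, had 3 peaks at 1 site. The site, chr7:139340647-139340826, had the same ends in galactose, low glucose and normal glucose and lay over TRR-CCT4-1 (chr7:139340700-139340772, plus strand). In all 3 lists the same peak was also annotated to FMC1. The core began 3 nt before the tRNA gene and ended 4 nt after it, as at TRR-CCT2-1 of KCTD2.

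ERCC1, the partner of the XPF nuclease in nucleotide excision repair, had 3 peaks over TRU-TCA1-1 (chr19:45478601-45478687, minus strand), the tRNA gene for selenocysteine. The peak ran from 45478547 to 45478740 in galactose, low glucose and normal glucose. At 194 nt these were the longest of the 27 peaks, on the longest of the 13 tRNA genes (87 nt). The peak is shown because this tRNA is known to be transcribed from elements before the gene, including a TATA box, rather than from the A box. It is given on the strand of the tRNA gene, which is in capitals.
ERCC1 TRU-TCA1-1 peak: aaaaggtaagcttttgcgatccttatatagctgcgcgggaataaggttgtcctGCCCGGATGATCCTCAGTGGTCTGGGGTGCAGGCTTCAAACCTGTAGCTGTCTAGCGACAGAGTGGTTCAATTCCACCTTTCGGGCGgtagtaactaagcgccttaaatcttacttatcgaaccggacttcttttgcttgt

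In the peak, the letters TATATA started 30 nt before the first base of the tRNA gene. The core began 3 nt before that base and ended 4 nt after the last, so that the TATATA lay in the outer 50 nt that were set aside. TATATA, which reads the same on both strands, was in the 50 nt before 1 of the 13 tRNA genes and before 1.40% of the 429 tRNA genes. The A box consensus, searched on the strand of the gene within its first 30 bases, was in 12 of the 13 and in 96.3% of all. TRU-TCA1-1 was the 1 of the 13 without it. The search also found no match in the histidine tRNA genes, so a missing match alone does not tell how a gene is transcribed.

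HJV (hemojuvelin, a BMP co-receptor of iron regulation) had 3 peaks at 1 site, chr1:146035641-146035820, with the same ends in galactose, low glucose and normal glucose. It lay over TRE-CTC1-1 (chr1:146035692-146035763, plus strand). Its core began 1 nt before the tRNA gene and ended 7 nt after it. Another tRNA gene, TRG-TCC2-1 (glycine, chr1:146037061-146037132, plus strand), lay 315 nt upstream of the 5′ end of HJV and had no peak in any list. It was the only tRNA gene within 1000 nt of a host gene but outside it.

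CROCC, which encodes rootletin of the ciliary rootlet, had 6 peaks, of which galactose and low glucose gave 3 each and normal glucose gave 0. Its 3 tRNA genes lay within 27.8 kb. Over TRG-CCC1-2 (chr1:16861921-16861991, plus strand) the galactose peak ran from 16861944 to 16862045 and the low glucose peak from 16861922 to 16862044. Over TRE-TTC3-1 (chr1:16872583-16872654, plus strand) the galactose peak covered the whole tRNA gene, from 16872531 to 16872707, and the low glucose peak, from 16872607 to 16872707, covered 66.7% of it at the 3′ end. Over TRN-GTT4-1 (asparagine, chr1:16889677-16889750, plus strand) the peaks ran from 16889702 to 16889803 in galactose and from 16889701 to 16889802 in low glucose. The peaks over TRE-TTC3-1 and TRN-GTT4-1 were each also annotated to another gene, listed without a symbol. The normal glucose list held the largest number of peaks of the 3 lists and none of CROCC. It held the fewest peaks over tRNA genes (57, against 65 with galactose and 68 with low glucose).

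The CROCC peak over TRN-GTT4-1 in galactose is given as an example of a short core, on the strand of the tRNA gene, with the 3′ part of that gene in capitals followed by the stretch after it.
CROCC TRN-GTT4-1 peak: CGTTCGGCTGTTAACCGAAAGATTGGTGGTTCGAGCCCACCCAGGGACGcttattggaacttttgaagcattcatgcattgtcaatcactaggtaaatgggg

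Its core was 2 nt long and ended 3 nt after the last base of the tRNA gene. The low glucose core, also of 2 nt, ended 2 nt after the last base. The peak covered the 3′ part of the tRNA gene only because the 50 nt before the core belong to it.

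VAC14, the scaffold of the PIKfyve lipid kinase complex, had 5 peaks at 4 sites, and no site of it was in all 3 lists. In normal glucose the peaks were chr16:70778158-70778258 over TRG-GCC3-1 (chr16:70778211-70778281, minus strand), chr16:70778982-70779161 over TRG-GCC2-4 (chr16:70779039-70779109, minus strand) and chr16:70789455-70789631 over TRG-GCC2-5 (chr16:70789507-70789577, plus strand). The galactose and low glucose lists held instead the same 101 nt peak, chr16:70788642-70788742, which overlapped no RefSeq tRNA gene. This was the only site of the 7 host genes without one. The normal glucose peak over TRG-GCC2-4 was also annotated to another gene, listed without a symbol.

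The VAC14 site of galactose and low glucose lay over the first part of a stretch that resembles a tRNA. The stretch, chr16:70788694-70788764 on the plus strand, had 66 of 71 bases (93.0%) in common with TRG-GCC2-4 and TRG-GCC2-5, and differed by C37T, A43C, C48G, G51C and C61T, which are in capitals here.
VAC14 tRNA-like stretch: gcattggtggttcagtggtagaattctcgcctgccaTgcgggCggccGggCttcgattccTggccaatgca

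The middle of the peak lay 2 nt before the first base of this stretch. Stretches of at least 90% identity to a tRNA gene, within 100 nt of the region, were found at 0.463% of the 864 regions that hold no RefSeq tRNA gene. Whether the stretch is transcribed cannot be told from the lists.

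AIM2, a cytosolic DNA sensor that assembles an inflammasome in myeloid cells, had 1 peak. It was in normal glucose, chr1:159141560-159141660, over TRR-TCT4-1 (arginine, chr1:159141611-159141684, minus strand). Its core of 1 nt lay 1 nt after the last base of the tRNA gene. No peak of AIM2 was listed in galactose or low glucose.

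**Figure D1:**
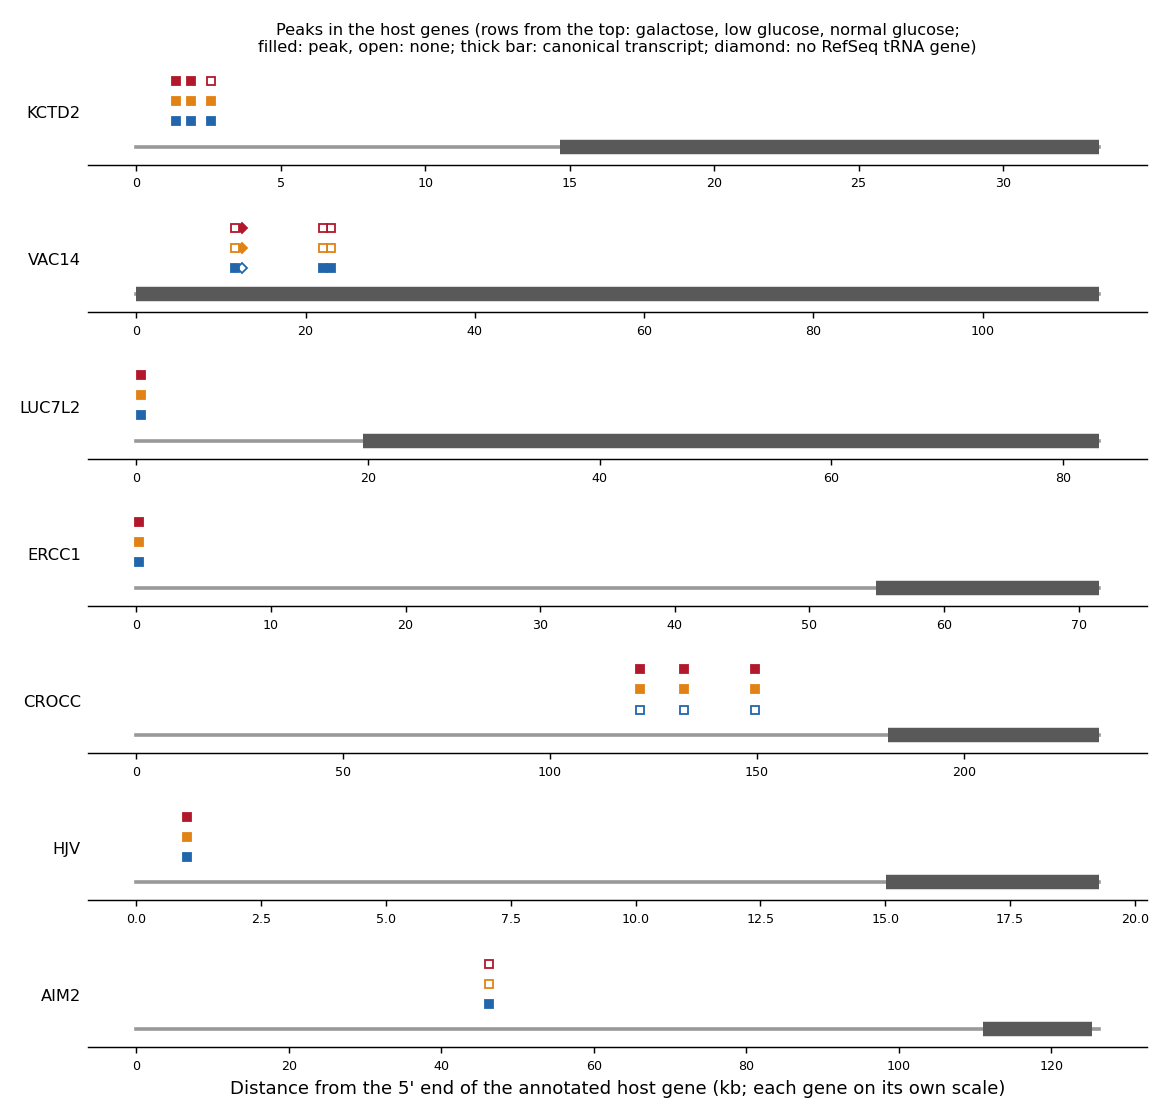
Sites of the 7 host genes, plotted by the distance of the middle of the site from the 5′ end of the annotated gene (kb, each gene on its own scale). Filled marks are peaks in galactose, low glucose and normal glucose (rows from the top), open marks are lists without a peak, diamonds mark the VAC14 site without a RefSeq tRNA gene, and the thick bar is the canonical transcript, which holds the sites of VAC14 only.

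By list, the host genes held 8 tRNA peaks with galactose, 9 with low glucose and 10 with normal glucose. Of the 13 sites over tRNA genes, 5 were in all 3 lists, 4 in 2 lists and 4 in 1 list. The 5 sites in all 3 lists were the 2 of KCTD2 at TRR-CCT1-1 and TRR-CCT2-1 and those of LUC7L2, ERCC1 and HJV. The 4 in 2 lists were the 3 of CROCC, present in galactose and low glucose, and TRR-TCG3-1 of KCTD2, present in low and normal glucose. The 4 in 1 list were all in normal glucose, in VAC14 and AIM2. No host site over a tRNA gene was in galactose alone or in low glucose alone. Elsewhere, 22 of 74 regions over tRNA genes were in 1 list only (29.7%). Some of those tRNA genes had a peak in galactose alone, others in low glucose alone and others in normal glucose alone. Presence in the lists was known when the hosts were chosen, and the split of the 4 host sites by list was not tested.

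Set against other regions, the share of sites in all 3 lists was 38.5% for the host sites (5 of 13, exact 95% interval 13.9 to 68.4). Of the regions over tRNA genes elsewhere 37 of 74 were in all 3 lists (interval 38.1% to 61.9%), and over all 87 regions with a tRNA gene, the hosts included, the share was 48.3%. It was 7.29% for regions over no tRNA gene (63 of 864, 5.65 to 9.23) and 11.0% for all merged regions (105 of 951). The intervals cover counting error over regions only. The interval of the host sites overlapped that of the other tRNA regions and lay above that of the regions without a tRNA gene, but presence in the lists was known when the genes were chosen and was not tested. The share in 1 list only was 30.8% for the host sites (9.09 to 61.4), close to the 29.7% of the other tRNA regions (22 of 74, 19.7 to 41.5), against 73.3% of all regions.

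All 5 host sites present in the 3 lists had the same start and end in each list. This held for 27 of 37 of the other tRNA regions in all 3 lists (73.0%, 55.9 to 86.2) and for 63.8% of all 105 regions in all 3 lists. With 5 sites the exact interval of the host share had its lower end at 47.8%, so it overlapped that of the other tRNA regions.

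**Figure D2:**
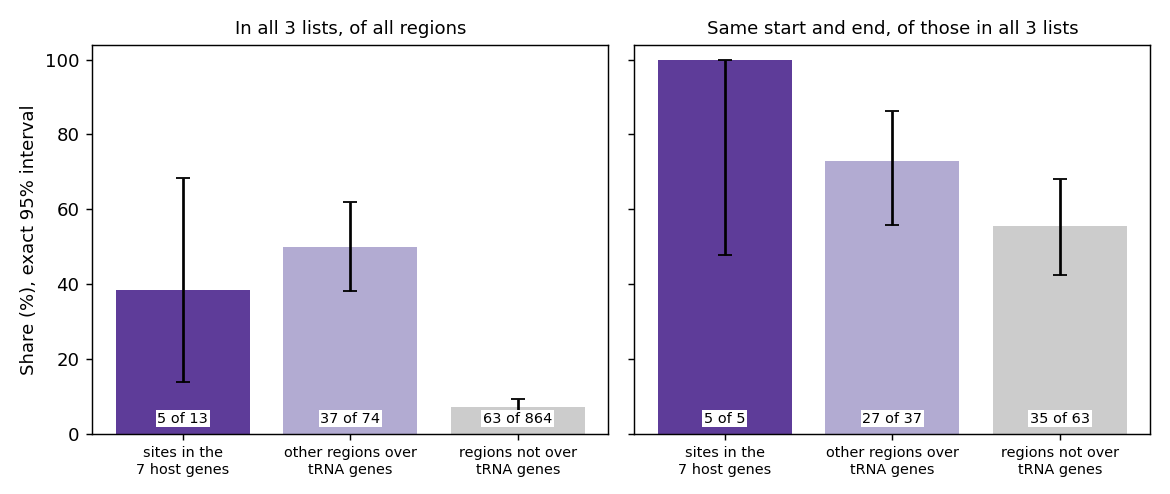
Left, share of regions with a peak in all 3 lists (%), for the 13 host sites over tRNA genes, 74 other regions over tRNA genes and 864 regions not over tRNA genes. Right, share of the regions in all 3 lists that had the same start and end in each list. Error bars are exact 95% intervals, and those of the host sites overlap those of the other tRNA regions in both plots.

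The peaks fitted the tRNA genes in 2 ways. In 19 of the 27 peaks the core held the whole tRNA gene, beginning 1 to 3 nt before its first base and ending 2 to 7 nt after its last base. Per the study's methods, crosslink sites near each other were merged into peaks, and the lists give only the ends of a peak. A whole-gene core thus does not show that bases inside the tRNA gene were crosslinked. In the other 8 peaks the core was 1 to 23 nt long and ended 1 to 4 nt after the last base, without reaching the first. Those of 1 or 2 nt lay wholly after the last base, so their peaks covered the tRNA gene only through the outer 50 nt. The core overlapped the tRNA gene in 21 of the 27 peaks. No core of a host peak stopped inside a tRNA gene or was at its 5′ end. By site, 9 of the 13 had a whole-gene core in at least 1 list. The other 4 (TRG-CCC1-2, TRN-GTT4-1, TRR-TCT4-1 and TRG-GCC3-1) had cores at or just after the 3′ end only.

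The 2 sites with both shapes changed between conditions in their 5′ edge. At TRE-TTC3-1 of CROCC the galactose core began 2 nt before the tRNA gene, whereas the low glucose core was 1 nt long, and both ended 3 nt after it. At TRR-TCG3-1 of KCTD2 the low glucose core was 5 nt long and ended 4 nt after the tRNA gene, whereas the normal glucose core began 3 nt before the gene and ended 3 nt after it. The 3′ edge thus moved by no more than 1 nt in either. At TRG-CCC1-2 the galactose core was 2 nt long and the low glucose core 23 nt, ending 4 and 3 nt after the tRNA gene.

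**Figure D3:**
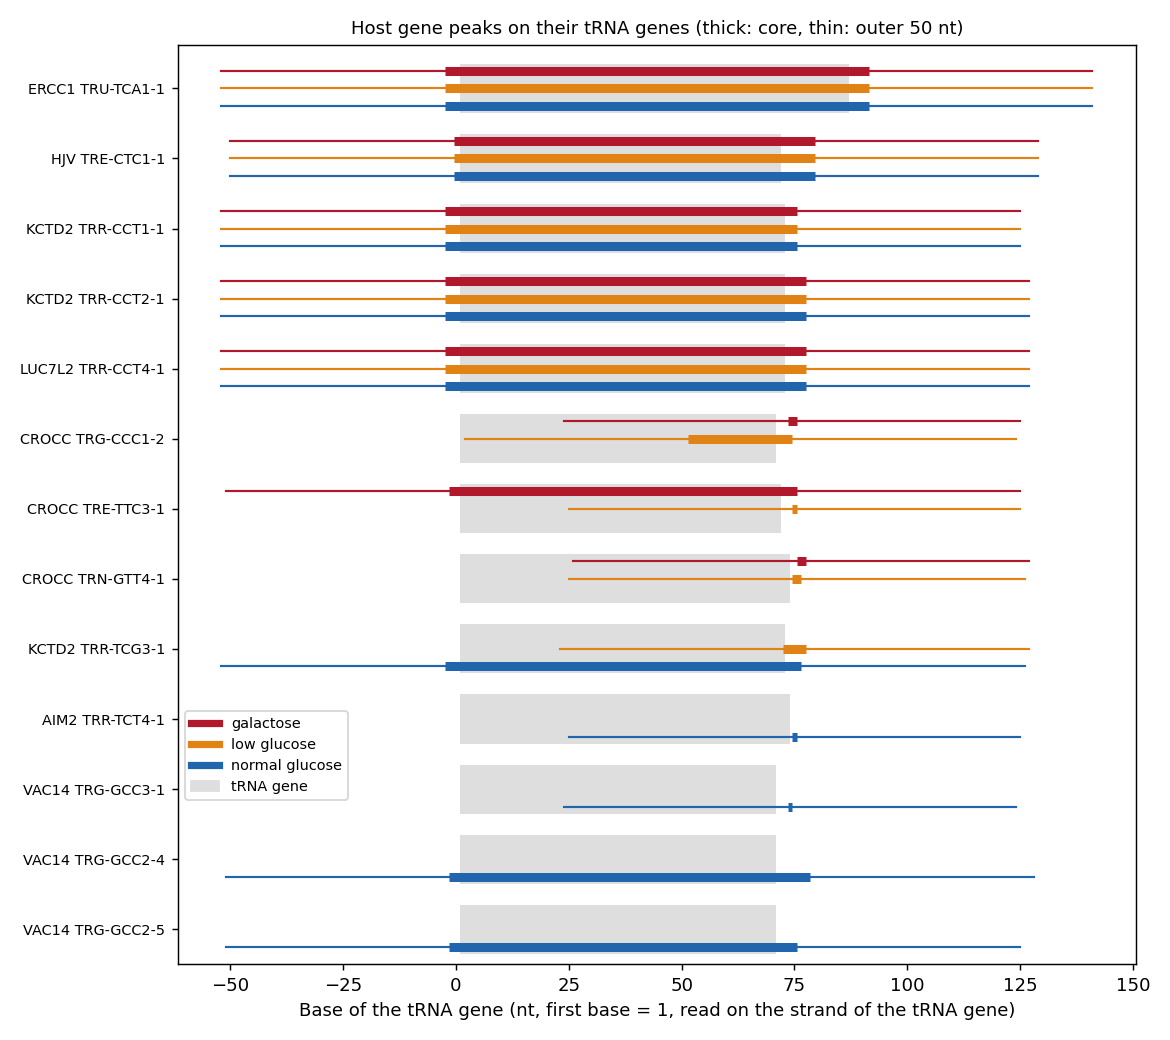
Every host peak over a tRNA gene, drawn along its tRNA gene (grey, first base = 1, in nt, read on the tRNA strand). Thick lines are cores and thin lines the outer 50 nt, in galactose, low glucose and normal glucose, and the cores of all 27 peaks end 1 to 7 nt after the last base.

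The 163 peaks over tRNA genes elsewhere took more shapes. The core held the whole tRNA gene in 70.4% of the host peaks (49.8 to 86.2) and in 41.7% of the others (34.1 to 49.7). It was at or just after the 3′ end in 29.6% of host peaks (13.8 to 50.2) and in 38.0% of the others (30.6 to 46.0). Cores at the 5′ end made 4.29% and cores that stopped inside the tRNA gene 15.3% of the other peaks, against 0 of the 27 host peaks, which allows a share of up to 12.8%. These intervals treat peaks as independent, although a site in several lists was counted in each, so they are too narrow.

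Within each list, 6 of 8 host peaks had the whole-gene core with galactose, 5 of 9 with low glucose and 8 of 10 with normal glucose. Among the other tRNA peaks 22 of 57 had it with galactose, 21 of 59 with low glucose and 25 of 47 with normal glucose. In both sets of peaks the low glucose share was below that of the other lists, but all these intervals overlapped between lists.

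Among the whole-gene cores, those of HJV and of a VAC14 site ended farthest from the tRNA gene. At TRE-CTC1-1 in all 3 lists and at TRG-GCC2-4 in normal glucose the core ended 7 nt after the last base. In the other 15 host peaks with a whole-gene core, and in all 68 such peaks elsewhere, it ended at most 4 nt after it. Cores without the first base reached up to 13 nt after the last base elsewhere.

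**Figure D4:**
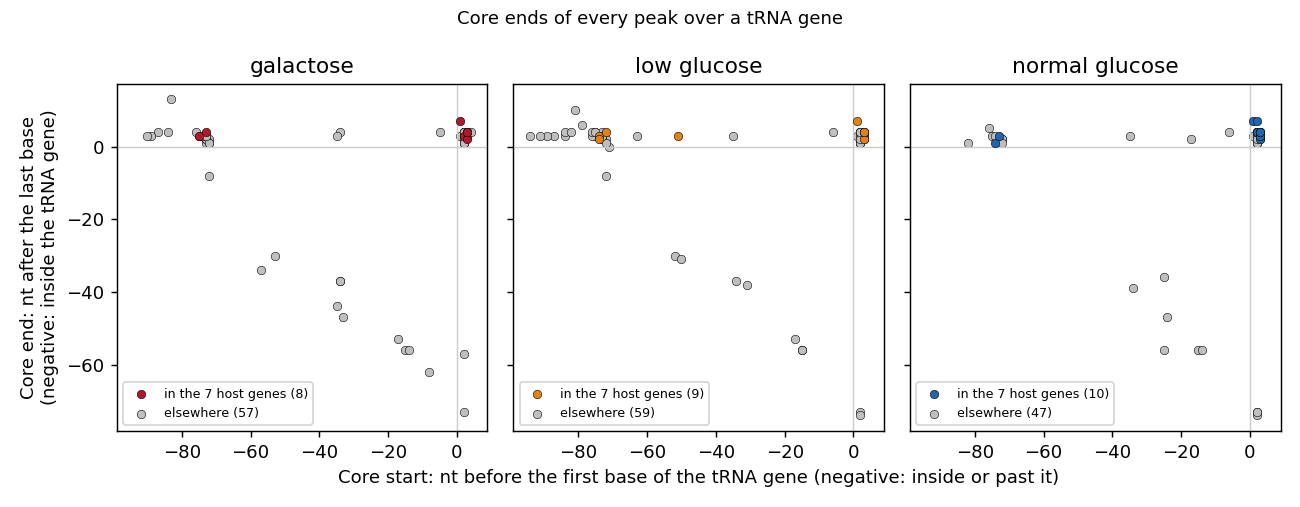
Core ends of every peak over a tRNA gene, as nt before the first base (horizontal axis, negative inside or past it) and nt after the last base (vertical axis, negative inside), in galactose, low glucose and normal glucose. Coloured points are the 8, 9 and 10 peaks of the host genes and grey points the 57, 59 and 47 peaks elsewhere, and the host points form a group at the upper right (whole gene) and another at the upper left (3′ end).

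The host peaks were wider than other peaks, as their cores were longer. Their median width was 179 nt (range 101 to 194), against 103 nt for other peaks over tRNA genes (101 to 191) and 101 nt for peaks over no tRNA gene (101 to 266). By list it was 179 nt in galactose, 178 nt in low glucose and 179.5 nt in normal glucose. For the other tRNA peaks it was 103 nt in galactose, 103 nt in low glucose and 176 nt in normal glucose.

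All 13 sites over tRNA genes lay in introns of the host gene as GENCODE annotates it, but for most hosts in few of its transcripts. The canonical transcript held only the 3 sites of VAC14. Hosting rested on 1 of 13 transcripts in CROCC, 1 of 7 in HJV, 1 of 10 in LUC7L2, 1 of 18 in ERCC1, 3 of 8 in AIM2, 5 of 9 in KCTD2 and 3 of 12 in VAC14. In the RefSeq annotation 8 of the 13 sites lay inside the host gene, in KCTD2, VAC14, LUC7L2 and AIM2, while those of CROCC, HJV and ERCC1 lay outside it.

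The distances show how far some sites were from the usual start of the host. The HJV site lay 13995 nt before the start of the canonical transcript, the ERCC1 site 54726 nt and the AIM2 site 64844 nt. The sites of CROCC lay between 32179 and 59948 nt before it, those of KCTD2 between 12076 and 13284 nt, and that of LUC7L2 19158 nt. The ERCC1 site was 185 nt and the LUC7L2 site 377 nt from the 5′ end of the longest gene model. The ERCC1 peak reached 5 nt into an exon, and the TRR-TCG3-1 site of KCTD2 reached 8 nt into one.

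The tRNA gene ran on the same strand as its host in 10 of the 13 sites and on the opposite strand in 3, which were TRE-CTC1-1 in HJV, TRR-CCT2-1 in KCTD2 and TRG-GCC2-5 in VAC14. Both strand relations occurred in KCTD2 and in VAC14. Since the lists carry no strand, this is the strand of the annotation and not of the RNA that was sequenced. Of the 5 sites in all 3 lists, 3 had the tRNA gene on the strand of the host and 2 on the other.

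The tRNA genes inside the host genes were all accounted for, since all 13 had a peak in at least 1 list. Among the 168 tRNA genes inside any GENCODE gene 48.2% had a peak, and of the 51 inside a protein coding gene 74.5% did, the 13 included. As the hosts were chosen for such peaks, these shares describe the setting and no more.

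Identical copies bear on how surely reads could be placed. Of the 13 tRNA sequences, 9 occurred in 1 tRNA gene only (69.2%, 38.6 to 90.9), against 35 of 74 of the other tRNA genes with a peak (47.3%, 35.6 to 59.3). TRE-CTC1-1 had 6 identical genes elsewhere, 4 of them inside an annotated gene, and none of the 6 had a peak in any list. TRG-CCC1-2 had 1 identical gene, TRG-CCC1-1, without a peak. TRG-GCC2-4 and TRG-GCC2-5 each had 5, counting each other, of which 3 had a peak: each other in normal glucose, and TRG-GCC2-1 (inside FCGR2A) and TRG-GCC2-6 in all 3 lists. For these 4 sites the gene of origin of the RNA thus rests on the bases around the tRNA gene. The other 9 are not all free of this limit. TRR-CCT1-1 and TRR-CCT2-1 differ at base 73 only. Of the 50-mers of their peaks, 17.8% and 17.6% occur more than once in the genome. The share was highest among the 9 at TRE-TTC3-1 of CROCC, with 34.4% of the 50-mers of its longest peak.

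Sequence that recurs in the genome was measured as the share of the 30-mers of the longest peak of a site that occur more than once. It was over 50% at 2 of the 13 sites, both in CROCC (68.1% at TRG-CCC1-2 and 59.5% at TRE-TTC3-1). It was 31.5% at TRN-GTT4-1 of CROCC, between 24.7% and 28.9% at the 3 sites of KCTD2, 31.8% at HJV, 19.2% at LUC7L2, 13.9% at ERCC1, 1.39% to 36.4% at the 3 tRNA sites of VAC14 and 0.0% at AIM2. CROCC was thus the host with the most recurrent sequence under its peaks and the only host without a peak in normal glucose, and the part of recurrent sequence in this was not tested.

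Of the polymerase III elements, the central B box letters GGTTCGA, searched on both strands, were found in 10 of the 13 tRNA genes and in 58.7% of all 429. The 3 without them were TRU-TCA1-1, TRG-CCC1-2 and TRG-GCC3-1. A run of TTTT within 25 nt after the gene, on its strand, followed 10 of the 13 and 81.6% of all. The 3 without TTTT were TRR-CCT2-1, TRU-TCA1-1 and TRG-GCC2-5. These matches are descriptions of the letters, and neither box overlaps the other. The GC content of the 13 tRNA genes lay between 56.2% and 66.7%.

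Few other genes of the tRNA pathway had a peak, as was the case for protein coding genes in general. Of 99 genes for RNA polymerase III and its factors, tRNA end processing, splicing, modification, aminoacylation and export, 3 had a peak in any list. This share was near the 2.79% of all protein coding genes of GENCODE. The 3 include RPPH1, which is not protein coding, so the 2 shares are not of the same kind of gene. XPOT, the export receptor of tRNA, had 1 peak in galactose (chr12:64404561-64404661). RPPH1, the RNA of RNase P, had 2 peaks in normal glucose, and ADAT2, a subunit of the tRNA adenosine deaminase, had 1 peak in the same list (chr6:143449837-143449937). None of the 99 had a peak in low glucose, where 1.54% of all protein coding genes did, so a list of this size would hold few at that share.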

How the data were processed

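GAPDH-bound RNA was measured by CLIP-seq in 6 samples of MOLM-13 cells. Per the labels, the authors joined both samples of each condition. The deposited lists hold positions (chromosome, start, end), an Ensembl gene identifier and a symbol. Per the study's methods, crosslinked RNA was digested with RNase T1 and sites were called with PureCLIP; the processing notes name cutadapt, STAR and hg38 (GRCh38). The lists give no depth, so intervals (exact Clopper-Pearson, 95%) cover counting error over peaks only. The study refers to deposited code for its mapping and peak calling parameters, which was not used here. How reads with several best places were handled is not given in the sources used here. It could decide which of identical or nearly identical tRNA genes has a peak.

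Peaks were read as 1-based with both ends included, and an overlap of 1 nt joined peaks and tRNA genes. Of 443 nuclear tRNA entries of the RefSeq table (GRCh38.p14), 429 were used; for 14 the strand was not clear from anticodon and B box. Genes and transcripts came from GENCODE release 44. A core ending over 10 nt beyond the tRNA gene was called apart from it. The scripts (Python 3.11.15, pandas 2.3.3, pysam 0.24.0, SciPy 1.17.1) were tested on simulated peaks. All 7 genes and every tRNA gene in them or within 1000 nt are named, with identical tRNA genes elsewhere and pathway genes with a peak. The genes, the lists, the motif letters and the limit of 10 nt were chosen with earlier results of these data known. Some sequences are not reported here.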

Additional observations from a re-analysis of the deposited data

How the results depend on the processing

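The count of 27 host peaks over tRNA genes ran from 19 (whole tRNA gene inside the peak) to 27 under 6 alternatives, with 21 where the core itself had to overlap the tRNA gene, 25 without single-site peaks with a G before the middle, and 23 without recurrent sequence. The count of 5 sites in all 3 lists was 5 under each of 4 other rules for a shared site. The 105 regions in all 3 lists became 63 without peaks over tRNA genes and 107 with peaks joined within 50 nt. The 13 intronic sites became 3 with the canonical transcript, as the other 10 lie before its start, and 11 where no base may touch an exon. The 2 sites of recurrent sequence became 0 with 50-mers and stayed 2 with 20-mers. The strand count (10) was the same with RefSeq strands, and the median width was 178 nt with 1 value per site. No paired analysis was possible because each list joins both samples of its condition, and for the same reason no replicate could be left out. The lists give no depth, so sites near the authors' threshold cannot be told from absent ones.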
